A study of Mus musculus with 6 samples.

Results

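The TAM receptor tyrosine kinases Mertk, Axl and Tyro3, their ligands Gas6 and Pros1, and the scavenger and engulfment receptors Cd36, Scarb1, Lrp1, Megf10 and Stab1 were examined in NG2 lineage cells of the mouse spinal cord. These 10 genes were taken by symbol from the 38293 Ensembl genes of the deposited count table, and each had 1 row. RNA had been read by bulk sequencing in 6 libraries, 3 Control and 3 EAE. EAE, experimental autoimmune encephalomyelitis, is a model of multiple sclerosis in which myelin comes under immune attack. All mice, Control included, were female and carried NG2-CreERTM:Rosa-tdTomato/+:Cx3cr1GFP/+, that is, an inducible Cre recombinase under the NG2 (Cspg4) promoter, a red reporter that it switches on, and a Cx3cr1 allele that makes green fluorescent protein. Live tdTomato-positive cells were sorted from whole cords dissociated with actinomycin D, an inhibitor of transcription. Ages, the stage of EAE, the time of Cre induction and the number of animals per library are not stated in the labels. The p-values therefore reflect how far apart these libraries lie, which may in part be technical.

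Cells that die display phosphatidylserine, a lipid otherwise kept on the inner face of the membrane. Gas6 and protein S, the product of Pros1, bind this lipid and link it to TAM receptors on a neighbouring cell, which then engulfs the target. Gas6 engages all the TAM receptors, whereas protein S acts on Tyro3 and Mertk. In the nervous system, Mertk and Megf10 are known for the uptake of synapses by astrocytes, and Mertk and Axl for the clearance of debris by microglia and macrophages. Scavenger receptors take up modified lipoproteins and cell remnants, and Lrp1 is a receptor of oligodendrocyte precursors, vessel wall cells and neurons that also binds myelin fragments. The NG2 promoter is active in oligodendrocyte precursors and in pericytes and smooth muscle cells, so a sort on it holds glial and vascular cells together.

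Library totals ran from 22141522 to 28734798 reads. The sorted cells carried the markers that their label implies, with Cspg4 at 354 ± 27.1 CPM in Control and 213 ± 88.2 in EAE and the precursor receptor Pdgfra at 262 ± 98.2 and 337 ± 40.8 (CPM is a read count scaled to a fixed library total of 1000000 reads; values as mean ± SD with n = 3 in each group, as for all later means). The largest of the marker sums was that of 11 mature oligodendrocyte markers, at 34023 to 36626 CPM in Control and 29005 to 46096 CPM in EAE. The 10 precursor markers summed to 2402 to 3633 and 3270 to 4849 CPM. Which of these cells held the RNA of the 10 genes was not tested. The summed level of 14 endothelial markers, which the sort was not aimed at, was 1535 to 2522 CPM in Control and 336 to 475 CPM in EAE. That of 13 pericyte and smooth muscle markers was 3624 to 6115 and 625 to 1025 CPM. Of these 27 vessel markers 26 were tested, and all 26 were called lower, with 23 to 26 called when 1 library was left out. The summed level of 12 monocyte and macrophage markers was 3.82 to 11.8 CPM in Control, where Cybb, Ms4a7, F13a1 and Plac8 had no read, and 112, 15.2 and 385 CPM in EAE replicates 1, 2 and 3. Of those 12 markers 8 were tested and 4 were called, all higher, against 2.82% of all tested genes called higher. Without any 1 of the Control libraries 0 were called, and without EAE replicate 1 or 3 only 1. DESeq2 also called 4, the replicate block or no filter on low counts gave 2, and limma-voom 0. The 13 microglial markers summed to 73.3 to 82.8 CPM in Control and 51.5 to 138 CPM in EAE, with 0 of 12 tested members called by edgeR, 2 higher and 1 lower at an unadjusted p under 0.05, and 1 called higher by DESeq2. Over all tested genes 9.6% were higher and 10.6% lower at an unadjusted p under 0.05, and DESeq2 called 5.66% higher. Of the microglial markers, P2ry12 and Tmem119 were at 2.76 ± 2.82 and 1.50 ± 0.36 CPM in Control and 1.84 ± 1.53 and 0.517 ± 0.325 CPM in EAE. They were a small part of the sum and do not stand for the list. The mean of the sum went the other way, from 76.8 CPM in Control to 93.7 CPM in EAE. In bulk RNA, fewer cells of a type and less RNA per cell cannot be told apart, which applies to each difference below.

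Mertk, Axl and Scarb1 fell in EAE, by 4.12-fold, 3.54-fold and 2.44-fold, whereas Tyro3, Lrp1 and Megf10, which were among the 4 most abundant of the 10 per kilobase in Control, did not pass the test. Calls were made by the edgeR quasi-likelihood test at a Benjamini-Hochberg adjusted p under 0.05 over all 16966 genes that passed the filter on low counts. Of the 10 genes 9 passed this filter, all except Cd36. Among these 9 members 3 were called, all lower (33.3%), against 7.14% of all tested genes called in either direction and 4.33% called lower. None of the 9 was called higher, against 2.82% of all tested genes. At an unadjusted p under 0.05, 0 of the 9 were higher and 5 lower, against 9.6% and 10.6% of all tested genes. DESeq2 called 0 higher and 4 lower, against 5.66% and 7.12% of the 16919 genes to which it gave an adjusted p. The median log2 fold change of the 9 was -0.60, and that of all tested genes was 0.004. The ranges of CPM did not overlap between the groups for 5 of the 9, all lower in EAE, against 12.4% of all tested genes. The number called lower fell to 1 without either Control replicate 1 or EAE replicate 1 and to 2 without Control replicate 2, and Mertk alone was called in each of the 6 fits that left out 1 library.

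**Figure D1:**
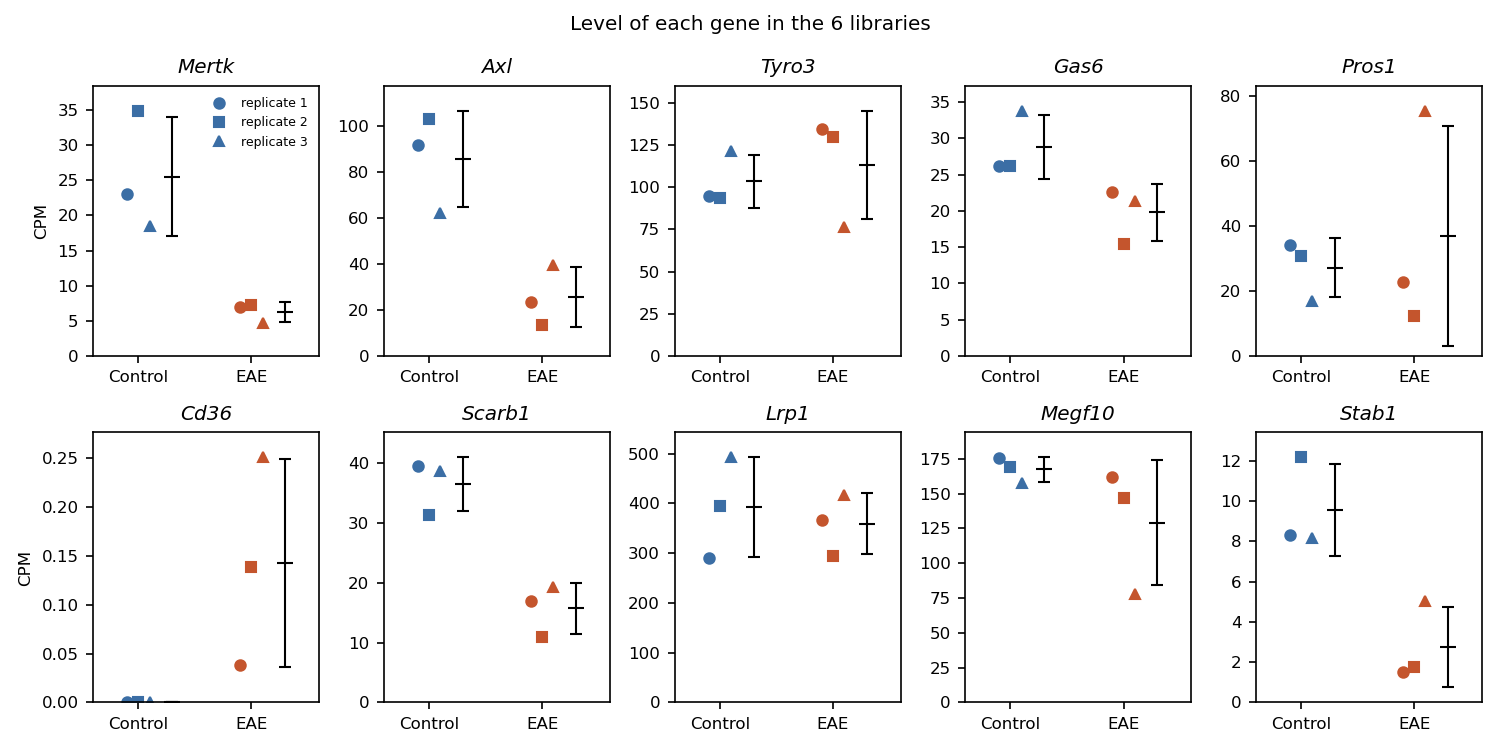
Level of each of the 10 genes in CPM (linear axes, a scale of its own per gene) in the 3 Control and 3 EAE libraries. Symbols mark replicate numbers and black bars the mean ± SD. Mertk, Axl, Gas6, Scarb1 and Stab1 show no overlap between the groups in the direction of lower EAE values, and Pros1 and Megf10 show EAE replicate 3 apart from the other EAE libraries.

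Among the TAM receptors, Mertk (ENSMUSG00000014361, chromosome 2, 128698956 to 128802894, plus strand, GRCm38/mm10) stood at 23.1, 34.9 and 18.6 CPM in Control replicates 1, 2 and 3 and at 6.90, 7.27 and 4.67 CPM in EAE replicates 1, 2 and 3. Every EAE library lay below every Control library, and the EAE values were close to each other. The log2 fold change of Mertk was -2.04 ± 0.32 (SE here and throughout; 95% interval -2.77 to -1.32, adjusted p = 0.00714). Over the 6 fits without 1 library it ran from -2.23 to -1.79, with an adjusted p of 0.00837 to 0.0369.

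Axl (ENSMUSG00000002602, chromosome 7, 25757273 to 25788705, minus strand), which Gas6 activates and protein S does not, was at 91.9, 103 and 62.3 CPM in Control and 23.5, 13.6 and 39.3 CPM in EAE. The groups did not overlap, and within EAE replicate 3 was the highest and replicate 2 the lowest. The log2 fold change of Axl was -1.82 ± 0.33 (95% interval -2.57 to -1.08, adjusted p = 0.0130). The call was lost without Control replicate 1, Control replicate 2 or EAE replicate 1, at an adjusted p of 0.0626, 0.0614 and 0.0610.

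Tyro3 (ENSMUSG00000027298, chromosome 2, 119797733 to 119818104, plus strand), the TAM receptor best known from neurons and myelinating glia, was at 94.9, 93.9 and 122 CPM in Control and 134, 130 and 76.6 CPM in EAE. The groups overlapped because EAE replicate 3 was the lowest of all 6 libraries, while EAE replicates 1 and 2 were the highest. The log2 fold change of Tyro3 was 0.10 ± 0.25 (95% interval -0.47 to 0.67, adjusted p = 0.879), and 0.36 ± 0.16 without EAE replicate 3 (adjusted p = 0.294). The sign turned without EAE replicate 2, to -0.07.

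Per kilobase of the deposited gene length, the TAM receptors summed to 39.6 ± 3.73 CPM per kb in Control and 24.8 ± 3.37 in EAE. Tyro3 made up 39.4%, 34.7% and 54.1% of this sum across the 3 Control libraries, in replicate order, against 77.6%, 82.7% and 58.2% across the EAE libraries. Its share was thus higher in every EAE library than in any Control library, with a narrow gap between Control replicate 3 and EAE replicate 3. Axl held 46.9%, 46.8% and 34.1% in Control and 16.7%, 10.7% and 36.8% in EAE, so its shares overlapped. Mertk held 14.6 ± 3.43% and 5.80 ± 0.79%. The log2 ratio of Mertk to Axl reads within a library, which no scaling changes, was -1.77 ± 0.22 in Control and -1.91 ± 1.09 in EAE. The groups differed by -0.15 (2-sided exact permutation p = 0.8, where 3 against 3 libraries cannot give a p under 0.1), and without EAE replicate 3 this difference turned to 0.43.

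**Figure D2:**
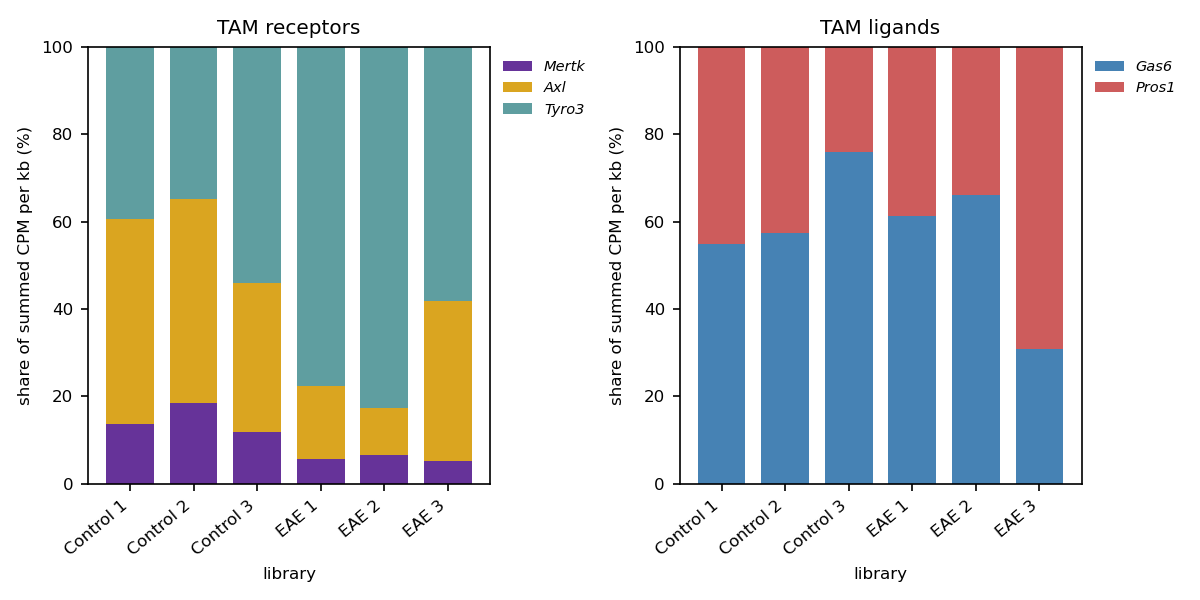
Share of each gene in the summed CPM per kilobase of the TAM receptors (left) and the TAM ligands (right), in percent, for each of the 6 libraries. Tyro3 fills 58.2% to 82.7% of the receptor sum in EAE and 34.7% to 54.1% in Control, and Pros1 fills the larger part of the ligand sum only in EAE replicate 3.

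The stretches just before the RefSeq starts of the called TAM receptors Mertk and Axl are shown. They come from the RefSeq promoter table (build GRCm38.p6), in which 8 of the 10 genes were matched by symbol, and hold the 250 bases before the start, read 5′ to 3′ on the strand of the gene. Both RefSeq starts lie before the gene starts given above, 128698956 for Mertk and 25788705 for Axl, so the windows end short of those. The bases that follow each window matched no annotated transcript of its gene, so transcripts could not check the reading direction. Capitals mark the GC box, the letters GGGCGG on either strand, a motif of housekeeping promoters.
Mertk, chr2:128698665-128698914, plus strand: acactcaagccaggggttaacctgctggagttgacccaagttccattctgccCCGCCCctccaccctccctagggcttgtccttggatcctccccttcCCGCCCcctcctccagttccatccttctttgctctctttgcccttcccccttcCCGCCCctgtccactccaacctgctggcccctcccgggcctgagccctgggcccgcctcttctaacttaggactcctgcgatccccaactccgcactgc
Axl, chr7:25788734-25788983, minus strand: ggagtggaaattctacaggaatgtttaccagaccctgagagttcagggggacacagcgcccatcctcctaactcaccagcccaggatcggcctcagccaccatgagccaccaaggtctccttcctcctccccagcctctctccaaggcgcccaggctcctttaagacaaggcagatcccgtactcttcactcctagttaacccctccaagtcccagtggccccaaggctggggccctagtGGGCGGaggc
The GC box was found 3 times before Mertk and 1 time before Axl, and 32.7% of the 32851 windows of this length in the table held it. The windows were 63.6% and 60.0% G and C, against a median of 52.4%. Neither strand of these windows held TATAAA, the core element of many tissue-specific promoters, which was in 12.4% of all windows. Motifs of the AP-1 type (in 6.75% of all windows), the GAS type (7.02%), the ISRE type (2.98%) and the DR4 type (0.0152%) were searched on both strands too, and none was found in these windows. These counts describe letters in a short window and say nothing about which factors act on the genes.

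Neither TAM ligand passed the test. Gas6 (ENSMUSG00000031451, chromosome 8, 13465374 to 13494490, minus strand), which encodes a vitamin K-dependent ligand, was at 26.3, 26.3 and 33.8 CPM in Control and 22.7, 15.4 and 21.3 CPM in EAE. All EAE values lay below all Control values, by a small margin. The log2 fold change of Gas6 was -0.60 ± 0.21 (95% interval -1.08 to -0.12, unadjusted p = 0.0199 and adjusted p = 0.143 by edgeR), and its adjusted p stayed between 0.0881 and 0.322 over 12 alternatives. An antisense gene, Tmem255b, overlaps 1.33% of its exonic bases.

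Pros1 (ENSMUSG00000022912, chromosome 16, 62854307 to 62929346, plus strand), which encodes protein S, also an anticoagulant of plasma, was at 34.0, 30.6 and 16.9 CPM in Control and 22.6, 12.4 and 75.4 CPM in EAE. The highest and the lowest of the 6 libraries were thus both EAE libraries. Its log2 fold change was 0.34 ± 0.55 (95% interval -0.92 to 1.59, adjusted p = 0.807), and -0.64 without EAE replicate 3 (adjusted p = 0.384). The 3 EAE libraries came in the same order for Pros1 as for the summed monocyte and macrophage markers, with replicate 3 highest and replicate 2 lowest. This order was not particular to those markers. The summed microglial, T cell, fibroblast and precursor markers had it too, as did Axl, Scarb1 and Lrp1. The part of any of these cells in the Pros1 level was not tested.

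The ligand sum was 17.7 ± 0.64 CPM per kb in Control and 14.3, 8.96 and 26.7 CPM per kb in EAE replicates 1, 2 and 3. The Control libraries were alike and the EAE libraries spread widely around them. The log2 ratio of Gas6 to Pros1 reads was 0.14 ± 0.75 in Control and -0.50 ± 1.16 in EAE. The groups differed by -0.64 (2-sided exact permutation p = 0.6) and by 0.02 without EAE replicate 3, where Pros1 reads outnumbered Gas6 reads the most.

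Scarb1 was the 1 scavenger receptor called. Scarb1 (ENSMUSG00000037936, chromosome 5, 125277087 to 125341094, minus strand), the high-density lipoprotein receptor SR-B1, was at 39.6, 31.4 and 38.7 CPM in Control and 17.0, 10.9 and 19.3 CPM in EAE. The groups were well apart, with the highest EAE value below the lowest Control value. The log2 fold change of Scarb1 was -1.29 ± 0.23 (95% interval -1.81 to -0.76, adjusted p = 0.0129). Its call was lost without Control replicate 1 or EAE replicate 1, at an adjusted p of 0.0657 and 0.0552.

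Stab1 (ENSMUSG00000042286, chromosome 14, 31139013 to 31168641, minus strand), which encodes stabilin-1, a phosphatidylserine receptor of macrophages and sinusoidal endothelium, was at 8.33, 12.2 and 8.17 CPM in Control and 1.49, 1.77 and 5.06 CPM in EAE. The groups did not overlap, and EAE replicate 3 stood between the other EAE libraries and Control. Its log2 fold change of -1.85 ± 0.48 (95% interval -2.95 to -0.76) narrowly missed the threshold at an adjusted p of 0.0549. It passed with DESeq2 (adjusted p = 0.00319), limma-voom (adjusted p = 0.0348) and no filter on low counts (adjusted p = 0.0337). Without EAE replicate 3 it also passed, at a log2 fold change of -2.52 and an adjusted p of 0.00803. An antisense gene, Nt5dc2, overlaps 1.09% of its exonic bases.

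Cd36 (ENSMUSG00000002944, chromosome 5, 17781690 to 17888801, minus strand), the class B scavenger receptor and fatty acid translocase of macrophages and capillary endothelium, had 0 reads in every Control library and 1, 4 and 7 reads in EAE replicates 1, 2 and 3. A count of 0 allows up to 3 reads, which is 0.117 to 0.135 CPM in these Control libraries, and the EAE levels of 0.0381, 0.139 and 0.251 CPM were near that limit. Cd36 was therefore close to undetected in both groups, no fold is given, and it was not tested. Such limits take in counting error alone, because PCR duplicates do not stand for separate molecules.

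Lrp1 and Megf10 had the highest mean levels per kilobase of the 10 genes in Control. Lrp1 (ENSMUSG00000040249, chromosome 10, 127538161 to 127621148, minus strand), a large endocytic receptor with many ligands, was at 291, 394 and 492 CPM in Control and 367, 295 and 416 CPM in EAE. The groups covered nearly the same range. Its log2 fold change was -0.18 ± 0.20 (95% interval -0.62 to 0.27, adjusted p = 0.695), and 0.03 without Control replicate 3.

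Megf10 (ENSMUSG00000024593, chromosome 18, 57133090 to 57297467, plus strand), the mammalian relative of the fly engulfment receptor Draper, was at 175, 169 and 158 CPM in Control and 162, 147 and 78.1 CPM in EAE. EAE replicate 1 lay within the Control range, replicate 2 just below it and replicate 3 far below it. Its log2 fold change was -0.40 ± 0.27 (95% interval -1.02 to 0.21, adjusted p = 0.478), and -0.11 without EAE replicate 3 (adjusted p = 0.743). EAE replicate 3 was the lowest library for Megf10, Tyro3 and Mertk and the highest for Pros1. It also differed from the other EAE libraries over all tested genes. Chi-square per degree of freedom of the reads was 110 and 169 against EAE replicates 1 and 2, and 30.7 between those. The Pearson r of log2 CPM was 0.939 and 0.916 against 0.967, and 0.922 to 0.952 between Control libraries.

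**Figure D3:**
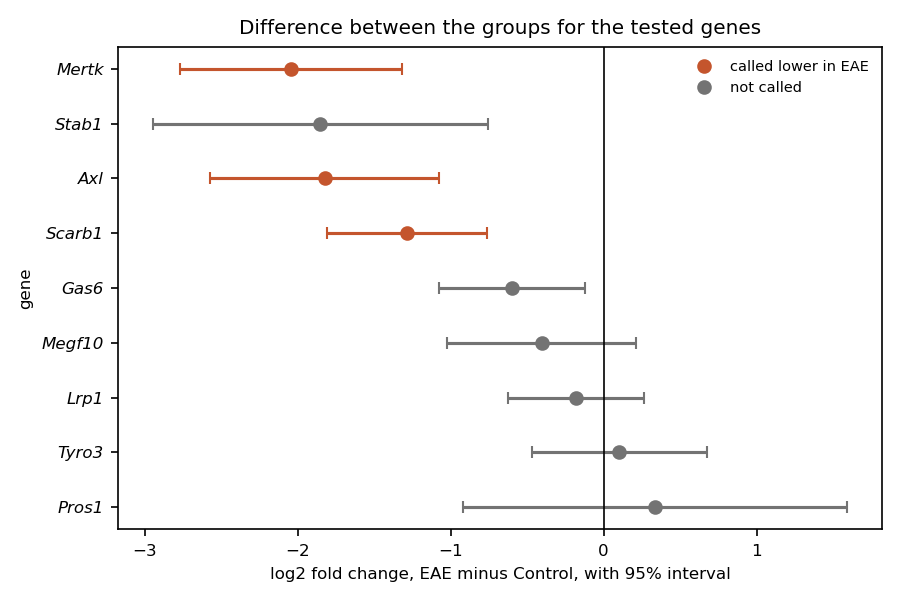
Log2 fold change (EAE minus Control, edgeR) of the 9 tested genes with its 95% interval, ordered by size. The called genes Mertk, Axl and Scarb1 and the uncalled Stab1 and Gas6 have intervals below 0, and those of Megf10, Lrp1, Tyro3 and Pros1 include 0.

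Per kilobase of gene length, the order of mean levels in Control was Lrp1 (22.1 ± 5.68 CPM per kb), Megf10 (21.7 ± 1.15), Axl (17.0 ± 4.17), Tyro3 (16.7 ± 2.54), Gas6 (11.1 ± 1.69), Pros1 (6.64 ± 2.22), Mertk (5.88 ± 1.95), Scarb1 (5.81 ± 0.71) and Stab1 (0.930 ± 0.221). The ranges of Lrp1 and Megf10, of Axl and Tyro3, of Pros1 and Mertk and of Mertk and Scarb1 overlapped, and those of the other neighbours in this order did not. In EAE the order of mean levels was Lrp1 (20.3 ± 3.44 CPM per kb), Tyro3 (18.3 ± 5.17), Megf10 (16.7 ± 5.80), Pros1 (9.00 ± 8.28), Gas6 (7.63 ± 1.49), Axl (5.06 ± 2.58), Scarb1 (2.50 ± 0.69), Mertk (1.45 ± 0.33) and Stab1 (0.270 ± 0.193). From Lrp1 down to Scarb1 each gene overlapped its neighbour, whereas Scarb1, Mertk and Stab1 did not overlap each other. The ranges of Axl and Tyro3 overlapped in Control and did not in EAE. Scarb1 has a longer exonic length in GENCODE than in the deposited table, which would put it at 4.30 CPM per kb in Control and 1.85 in EAE.

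Vessel and fibroblast markers were lower in EAE together with Mertk, Axl, Scarb1 and Stab1, and markers of newly formed oligodendrocytes were higher. The summed level of the vessel markers was 7308 CPM in Control and 1191 CPM in EAE, a 6.13-fold decrease that exceeded those of Mertk, Axl, Scarb1 and Stab1. Set against the vessel marker sum, Mertk had 2.67, 4.30 and 3.60 reads per 1000 vessel marker reads across the Control libraries, in replicate order, and 4.60, 6.84 and 4.62 across the EAE libraries. Axl had 10.6, 12.7 and 12.1 in Control and 15.7, 12.8 and 38.9 in EAE. Neither was lower in EAE on this scale, where every EAE value was above every Control value. The same held for Tyro3, Lrp1, Megf10, Gas6 and Pros1, with Tyro3 at 11.0 to 23.6 in Control and 75.8 to 122 in EAE. A gene that falls less than the vessel marker sum rises on this scale by arithmetic. The direction of these ratios therefore does not tell which cells held the RNA. Scarb1 had 3.87 to 7.50 reads per 1000 vessel marker reads in Control and 10.3 to 19.1 in EAE, and Stab1 0.965 to 1.58 and 0.992 to 5.01. The 9 fibroblast markers summed to 51.6 to 100.5 CPM in Control and 19.0 to 35.8 CPM in EAE, a 3.25-fold decrease, with 3 of 6 tested markers called lower and 1 without Control replicate 1 or EAE replicate 1. Of the fibroblast markers, Dpt was at 0 in all 6 libraries and Col1a1 in all but EAE replicate 3. The 10 markers of newly formed oligodendrocytes summed to 913 to 1298 CPM in Control and 2312 to 3160 CPM in EAE, with 9 of 10 called higher and 5 without Control replicate 1. The neuron marker sum was 20.6 to 34.1 CPM in Control and 54.1 to 123 CPM in EAE, with 1 of 7 tested markers called higher and 1 lower, and none without Control replicate 1 or 2. The sums of precursor, mature oligodendrocyte, astrocyte and T cell markers overlapped between the groups. The part of these shifts in marker level in the differences of the 10 genes was not tested.

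**Figure D4:**
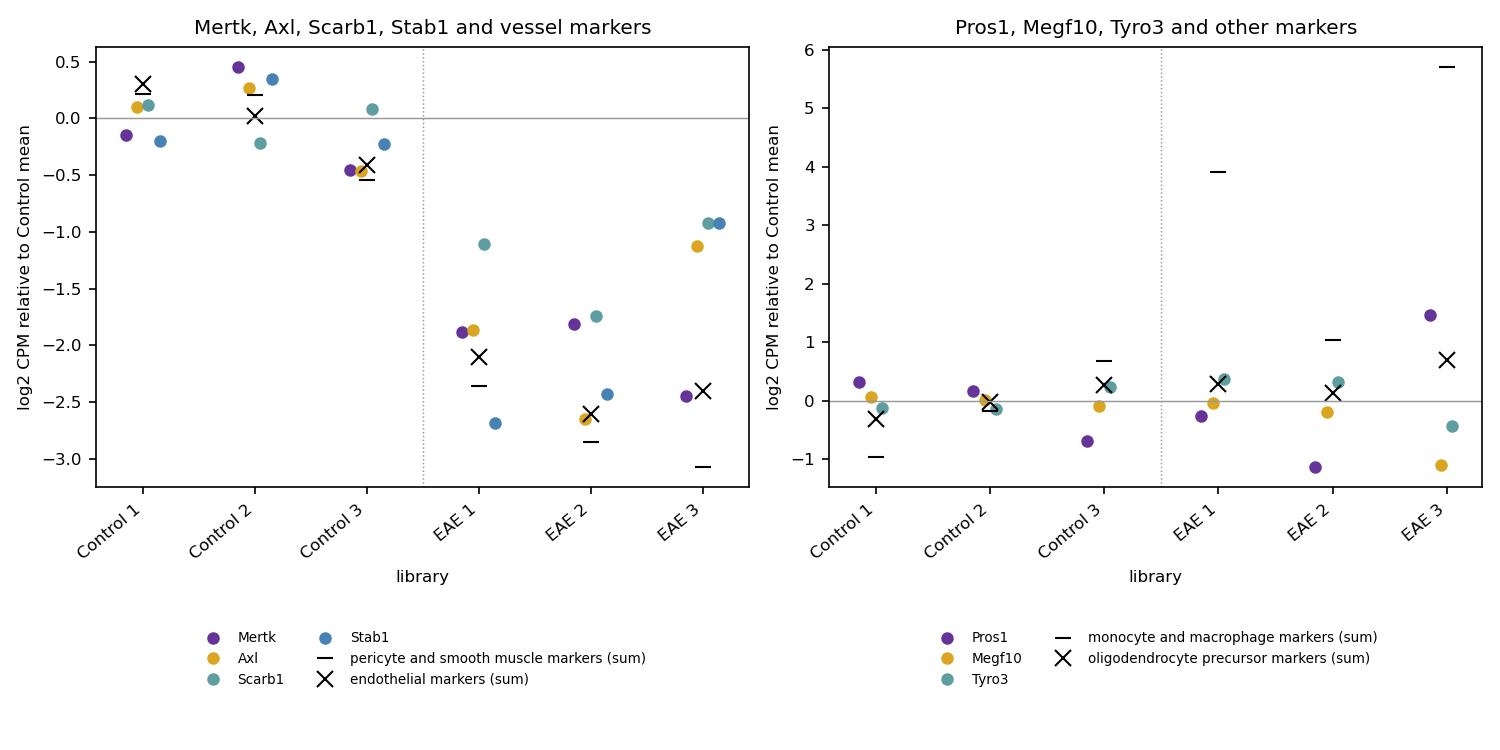
Log2 level of each library relative to the Control mean for Mertk, Axl, Scarb1 and Stab1 with the summed pericyte and endothelial markers (left) and for Pros1, Megf10 and Tyro3 with the summed monocyte and macrophage markers and precursor markers (right). Compared within each EAE library, the pericyte marker sum (-2.36 to -3.07) lies below Mertk (-1.81 to -2.45), and above Stab1 in replicate 1 (-2.69). The endothelial sum (-2.10 to -2.60) lies above Stab1 in EAE replicate 1, Axl in replicate 2 and Mertk in replicate 3. Pros1, the monocyte markers and the precursor markers are all highest in EAE replicate 3.

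For each called gene, the 3 genes with a mean of at least 10 CPM whose log2 CPM correlated best over the 6 libraries were listed out of 8984 compared. For Mertk these were Angptl2, an angiopoietin-like secreted protein (Pearson r = 0.996, n = 6 libraries), Tacc1, a coiled-coil protein of the centrosome (r = 0.994), and Efhd2, a calcium-binding protein (r = 0.994). For Axl they were Ly6c2 (r = 0.997), whose near-identical copy Ly6c1 can share reads, the amino acid transporter chain Slc3a2 (r = 0.997) and the copper chaperone Atox1 (r = 0.996). For Scarb1 they were the adaptor Shc1 (r = 0.994), the membrane-anchored protease inhibitor Reck (r = 0.993) and the lysosomal protease Ctsh (r = 0.992). All 9 had a higher mean in Control, such as Angptl2 with 40.4 and 10.3 CPM, and the points behind each coefficient share the difference between the groups and the library scaling. Over the 36 pairs of the 9 tested members r ran from -0.910 for Tyro3 and Pros1 to 0.944 for Axl and Stab1, and it was 0.811 for Mertk and Axl.

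Genes that act beside these receptors were taken from 6 lists of 78 genes, of which 66 were tested. By edgeR, 7 of the 66 were called lower and 1 higher, with a median log2 fold change of -0.14. Over all tested genes 4.33% were called lower, 2.82% higher and 7.14% in either direction. Other engulfment receptors and bridging molecules had 3 of 15 tested genes called, all lower (median -0.11), and 1 called without Control replicate 1 or 2. Mfge8, the milk fat globule protein that bridges phosphatidylserine to integrins, was at 109, 111 and 97.1 CPM in Control and 36.7, 22.0 and 45.0 CPM in EAE, without overlap. It fell 3.20-fold (adjusted p = 0.00322), and it was called in all 6 fits without 1 library. Pear1, a relative of Megf10 in platelets and endothelium, fell 7.37-fold (29.0 ± 14.1 to 4.08 ± 2.49 CPM, adjusted p = 0.0130), and Itgb5, the integrin beta chain that receives Mfge8, fell 3.85-fold (15.0 ± 5.49 to 4.01 ± 0.92 CPM, adjusted p = 0.0145). Neither kept its call without Control replicate 1 or 2 (highest adjusted p 0.0627 for Pear1 and 0.0714 for Itgb5). Cd47, the signal that restrains uptake, was at 588 ± 19.1 and 562 ± 80.9 CPM (adjusted p = 0.800), and Edil3, another integrin ligand that binds phosphatidylserine, at 868 ± 15.1 and 615 ± 131 CPM (adjusted p = 0.199).

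Of 14 genes of the intracellular engulfment machinery, 1 was called (7.14%), the same share as over all tested genes. Abca1, the cholesterol efflux transporter that acts after engulfment, was at 28.2, 35.9 and 39.2 CPM in Control and 119, 97.1 and 122 CPM in EAE. The groups were far apart. Abca1 rose 3.17-fold (log2 fold change 1.66 ± 0.16, adjusted p = 0.00122) and was called in all 6 fits without 1 library. The list median was -0.25. In the fit without Control replicate 3, 1 gene was called higher and 1 lower, and without EAE replicate 3, 1 higher and 2 lower. Dock1, an activator of Rac, was at 324 ± 29.8 and 237 ± 43.2 CPM (adjusted p = 0.102). Rac1 was at 1010.3 ± 11.1 and 994 ± 99.7 CPM (adjusted p = 0.844), and this value is uncertain because the antisense gene Daglb overlaps 51.4% of its exonic bases.

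Among genes of the Lrp family and their partners, 2 of 14 were called, both lower (median -0.26), and 1 without Control replicate 1 or 2 or EAE replicate 1 or 2. Lrp5, a Wnt co-receptor, fell 2.79-fold (22.7 ± 8.87 to 8.44 ± 0.71 CPM, adjusted p = 0.0284), a call that held in 1 of the 6 fits without 1 library, that without Control replicate 3 (adjusted p up to 0.119 in the others). Apoe, a lipoprotein ligand of Lrp1, was at 259 ± 40.3 and 566 ± 263 CPM (adjusted p = 0.126). Its EAE libraries stood at 686, 747 and 264 CPM, in replicate order, so the third lay within the Control range of 234 to 305 CPM. Once that library was omitted, edgeR called Apoe higher, by 2.79-fold (adjusted p = 0.00185), and the list had 1 gene called higher and 1 lower. Apoe was not called when any other library was omitted. Vldlr was at 194 ± 25.8 and 280 ± 24.7 CPM (adjusted p = 0.128).

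Only 6 of 13 other scavenger receptors were tested, and 2 were called, both lower (median -0.97). Without any 1 library other than Control replicate 3, 1 was called, lower. Without Control replicate 3, 2 were called lower and 1, Cd68, higher (adjusted p = 0.0324). Of the 7 untested genes, Msr1, Olr1 and Scara3 had no read in Control. In EAE replicate 3 they had 134, 222 and 87 reads, with far fewer in the other EAE libraries. Untested Cd163 had 0, 29 and 5 reads in Control and 4, 0 and 1 in EAE. Colec12, a collectin scavenger receptor of vessels, was at 33.1, 55.9 and 35.5 CPM in Control and 9.19, 5.15 and 2.59 CPM in EAE. It fell 7.49-fold (adjusted p = 0.00652) and was called in all 6 fits without 1 library. Scarf2 fell 5.90-fold (4.54 ± 2.87 to 0.788 ± 0.113 CPM, adjusted p = 0.0445), a call that also held in 1 of the 6 fits without 1 library, that without Control replicate 3 (adjusted p up to 0.177 in the others). The lysosomal membrane protein Scarb2 was at 127 ± 20.2 and 129 ± 16.9 CPM (adjusted p = 0.984), and the macrophage protein Cd68 at 2.94 ± 2.46 and 8.96 ± 4.42 CPM (adjusted p = 0.199).

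No gene was called by edgeR among 7 tested genes of TAM ligand processing and receptor shedding (median -0.18) or 10 of phosphatidylserine exposure and flipping (median 0.02). At an unadjusted p under 0.05, 1 gene of the former list was higher, and 1 of the latter was higher and 1 lower. Over all tested genes 9.6% were higher and 10.6% lower at that threshold. DESeq2 called 1 gene of the former higher, and 1 of the latter higher and 1 lower. Over all genes it called 5.66% higher and 7.12% lower, so such small counts set neither list apart. Without EAE replicate 2 edgeR called 1 of the former, higher. Lgals3, the 1 gene of the former list that did not pass the filter, had 0, 4 and 0 reads in Control. In EAE replicates 1, 2 and 3 it had 30, 9 and 514 reads. Adam10 and Adam17, proteases that cut TAM receptors from the cell surface, were at 104 ± 12.05 and 95.2 ± 3.61 CPM (adjusted p = 0.578) and at 51.6 ± 9.31 and 65.2 ± 4.79 CPM (adjusted p = 0.410). The flippase genes Atp8a1 and Atp11a, which hold phosphatidylserine inside, were at 449 ± 14.2 and 367 ± 47.6 CPM (adjusted p = 0.347) and at 265 ± 34.8 and 272 ± 29.7 CPM (adjusted p = 0.9998).

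**Figure D5:**
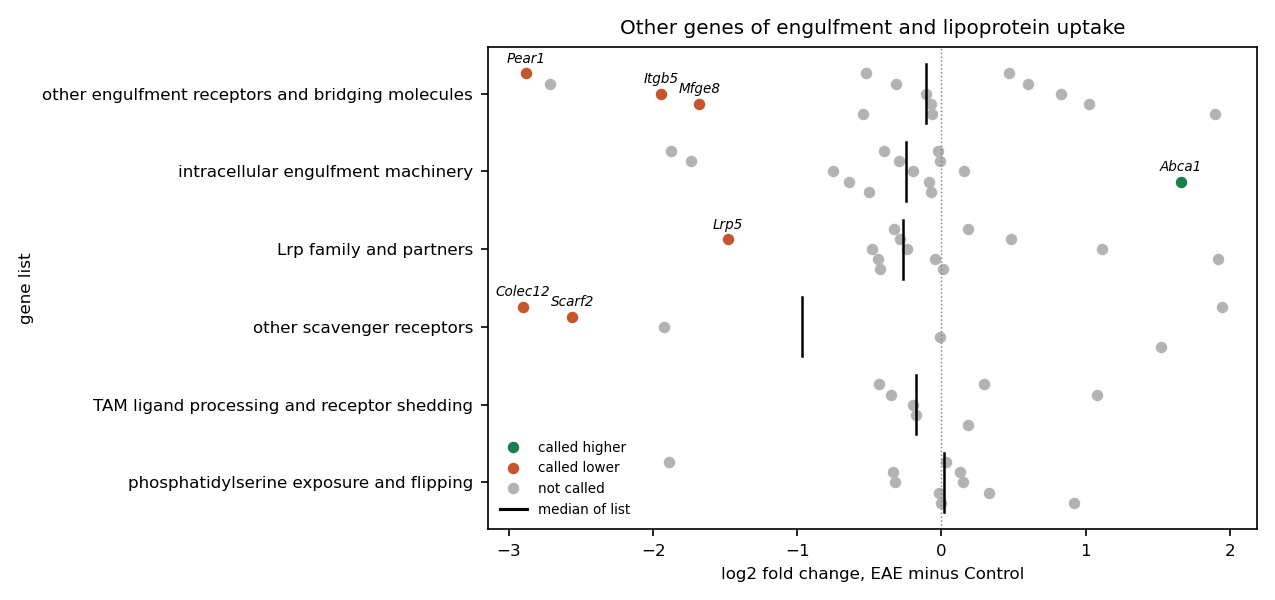
Log2 fold change (EAE minus Control, edgeR) of 65 of the 66 tested genes of 6 lists that act beside the receptors, 1 point per gene, with black bars at the medians of the whole lists. The called genes drawn are named, with Abca1 at 1.66 to the right of 0 and the other 6 between -2.91 and -1.48.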

How the data were processed

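Bulk RNA-seq of sorted NG2 lineage cells was analysed in 3 Control and 3 EAE libraries. The authors deposited raw read counts per Ensembl gene, whole numbers with no normalization, beside a gene length in base pairs, which gave the levels per kilobase in place of the merged exon length planned earlier. FastQC, STAR, featureCounts, edgeR 3.24.3 and mm10 are named, with no role or order, per the submitters' processing notes, and the strand setting, annotation release and handling of reads with several matches are given by no source at hand, so reads of overlapping genes cannot be told apart with certainty. Symbols were found for 36345 of 38293 identifiers (94.9%) in GENCODE M21 (GRCm38).

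Genes were kept by filterByExpr (minimum count 10, minimum total 15), given TMM scaling factors and compared by the robust quasi-likelihood F test (edgeR 4.0.16, R 4.3.3), 2-sided, with Benjamini-Hochberg adjustment over 16966 genes. Each SE was obtained from the log2 fold change and the square root of its F value. CPM came from library totals, and log2 CPM with a prior count of 2. The fit was first tested on simulated data. DESeq2 1.42.0, limma-voom (limma 3.58.1), other scalings, no filter, a replicate block and fits without 1 library were alternatives.

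The members and lists were chosen with earlier results of these data known. The values of 1 list gene are not reported here, though counts and medians include it. Named beside the members were called list genes, up to 5 a list, the 2 uncalled list genes with the highest mean CPM, and for each called member the 3 genes most like it.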

Additional observations from a re-analysis of the deposited data

How the results depend on the processing

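Mertk was called lower under all 12 alternatives, Scarb1 under 10 and Axl under 9, and Stab1, not called in the reported fit, under 4. The log2 fold change turned sign for Tyro3 under 1, Lrp1 under 1 and Pros1 under 2 of the 12, none of them with a call, and Pros1 was at -0.02 with the replicate block. The number of genes called over all was 1212, 2162 with DESeq2 and 440 to 1150 when 1 library was left out. The members called lower numbered 1 to 4 when 1 library was left out, and those called higher 0. DESeq2 called 5 of 15 other engulfment receptors (1 higher, 4 lower) and 3 of 14 machinery genes (1 higher, 2 lower). It called 1 of 7 genes of TAM ligand processing (higher) and 2 of 10 of phosphatidylserine exposure (1 higher, 1 lower). Over all genes it called 5.66% higher and 7.12% lower. With limma-voom 1 gene each of the Lrp family, other scavenger receptors and TAM ligand processing was called. The TAM processing list had 1 call with upper-quartile factors and 1 with no filter, and the other scavenger receptors 1 with library sizes alone. When 1 library was left out, calls ran from 1 to 4 for other engulfment receptors, 1 to 3 for machinery genes, 1 to 2 for the Lrp family, 1 to 3 for other scavenger receptors and 0 to 1 for TAM ligand processing. The Mertk to Axl difference ran from -0.65 to 0.43 and the Gas6 to Pros1 difference from -1.05 to 0.023, with the reversals, to 0.43 and 0.023, without EAE replicate 3. The cause of these changes was not tested. A fit without 1 library both holds fewer libraries and lacks a particular one, and these cannot be told apart.

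Replicate numbers are shared by the groups, but deviations of equally numbered libraries correlated at 0.02, -0.04 and -0.03, so the numbers were not taken as pairs. With the replicate block 818 genes were called, 3 members were lower, and the Lrp family and the other scavenger receptors had 1 call each. The within-library differences kept their values of -0.15 and -0.64, with exact p = 1.0 for each over the 3 pairs. So few pairs cannot give a small p in this test, so no conclusion is drawn from it. Counts of Cd36 and Stab1 are low, which limits what depth can show for them.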
